A study of Mus musculus with 6 samples.

Results

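The cytochrome P450 family was examined in Hepa1-6, an established mouse hepatoma line, after stable knockdown of midnolin. All rows of the deposited tables whose name begins with Cyp and a digit were taken, with the exception of Cyp26a1, Cyp26b1, Cyp51 and names ending in -ps, which left 99 of 25078 genes. Of these rows, Cyp4b1-ps2 is a pseudogene and Cyp4x1os is an RNA from the strand opposite Cyp4x1. RNA-seq after depletion of ribosomal RNA gave 6 libraries. The wt library (n = 1) came from parental cells without vector or selection. The scr libraries (n = 2, 25-2 and 50-1) came from cells transduced with lentivirus carrying a scramble vector, and the knockdown libraries (n = 3, 25-3, 50-2 and 50-5) from cells transduced with a midnolin shRNA vector. The transduced cells were selected with puromycin, and single-cell-derived colonies were isolated by limiting dilution, and the study speaks of a single scr control clone, so the scr group may be 1 clone. Whether the libraries of a group came from separate clones or cultures is not stated in the labels, and p-values then measure only the spread between these libraries. The study names knockdown clones sh1 to sh5 and reports RNA-seq of sh1 and sh2. The RPKM of all 1325 genes compared (relative difference of at most 1e-04) in its supplementary list equalled knockdown 50-2 for sh1. It equalled knockdown 25-3 for sh2, and knockdown 50-5 is not part of that list. By this match knockdown 50-2 and 25-3 were separate single-cell-derived clones. Differences between clones and the knockdown cannot be told apart.

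Cytochrome P450 enzymes carry a heme that binds oxygen, and they hydroxylate or epoxidize lipophilic substrates. Microsomal members receive electrons from NADPH-cytochrome P450 reductase and cytochrome b5, and mitochondrial members from ferredoxin. In hepatocytes the enzymes of families 1 to 3 clear drugs and other foreign compounds, those of family 4 hydroxylate fatty acids and eicosanoids, and a further set converts cholesterol to bile acids. Other members of the family make steroid hormones and activate vitamin D, largely in other tissues.

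Between 25586301 and 33119710 reads were counted per library, of which Rn45s, a ribosomal transcript, took 10.1% to 13.1%. Midn, the targeted gene, had an RPKM (reads scaled to exon length and library size) of 59.5 and 50.8 in the scr libraries and 20.3, 21.8 and 22.1 in the knockdown libraries. Summed over 8 hepatocyte markers, RPKM was 2926 and 4007 in the scr libraries and 215 to 1007 in the knockdown libraries. Alb, most of the sum in scr cells, was at 1877 and 2804 in the scr libraries and 336, 62.7 and 20.9 in the knockdown libraries, where Trf was the largest marker in 50-2 and 50-5. Serpina1a was at 0 in all 6 libraries. The markers did not move together, since Alb, Afp and Fgb were lower and Apob higher in all 3 knockdown libraries (Apob 3.00 and 1.07 against 52.2, 37.8 and 4.37), Trf and Hnf4a overlapped, and none of the 6 tested was called. The sum of 4 cholangiocyte markers overlapped, at 35.4 and 57.1 against 34.4 to 50.5. Of these, Krt7 was called lower, Sox9 (33.7 and 20.2 against 34.3, 46.6 and 31.2) and Epcam were not called, and Krt19 stayed at or below 0.179. The summed RPKM of 3 immune markers was 3.02 and 4.63 in the scr libraries and 6.31 to 9.37 in the knockdown libraries, nearly all of it Cd68, while Ptprc stayed at or below 0.160. The 3 endothelial markers summed to at most 0.358 and the 4 stellate or fibroblast markers to at most 0.937 in these 5 libraries. The part of these shifts in the P450 results was not tested.

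Most of the family was silent or nearly so. There were 25 members with 0 counts in all 6 libraries and 48 with between 1 and 19 counts in their highest library, while 26 reached 20 counts in at least 1 library. The undetected members included Cyp2e1, the ethanol-inducible enzyme of adult hepatocytes, and Cyp8b1, which is needed for cholic acid. A count of 0 allows up to 3 counts, which is an RPKM of 0.0515 to 0.0653 for Cyp2e1 and 0.0465 to 0.0590 for Cyp8b1 (counting error only). Cyp3a11, a main drug-metabolizing enzyme of mouse liver, had at most 2 counts in any library, and Cyp7a1, the rate-limiting enzyme of classical bile acid synthesis, had at most 14. Among the members with 0 counts were also 5 of the Cyp4a subfamily of fatty acid hydroxylases (Cyp4a12a, Cyp4a12b, Cyp4a14, Cyp4a29 and Cyp4a31). The P450 profile of these cells held few of the abundant enzymes of adult liver.

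The promoter windows of 4 members are shown, namely the most abundant gene (Cyp1a1), the abundant gene that rose (Cyp2s1) and the pair that fell with the smallest FDR (Cyp27a1 and Cyp4v3). Each is a RefSeq window of 300 bases on GRCm38.p6, from 250 bases before to 50 after the annotated start. Capitals mark GCGTG, the core of the element bound by the aryl hydrocarbon receptor (AHR) with ARNT, searched on both strands.
Cyp1a1 (chr9:57697363-57697662, plus strand): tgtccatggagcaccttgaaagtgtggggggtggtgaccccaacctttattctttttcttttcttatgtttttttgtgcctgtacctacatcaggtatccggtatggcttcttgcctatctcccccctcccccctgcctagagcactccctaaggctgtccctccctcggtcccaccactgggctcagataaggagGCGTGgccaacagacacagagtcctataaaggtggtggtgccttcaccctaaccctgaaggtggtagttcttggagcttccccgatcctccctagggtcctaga
Cyp2s1 (chr7:25816476-25816775, minus strand): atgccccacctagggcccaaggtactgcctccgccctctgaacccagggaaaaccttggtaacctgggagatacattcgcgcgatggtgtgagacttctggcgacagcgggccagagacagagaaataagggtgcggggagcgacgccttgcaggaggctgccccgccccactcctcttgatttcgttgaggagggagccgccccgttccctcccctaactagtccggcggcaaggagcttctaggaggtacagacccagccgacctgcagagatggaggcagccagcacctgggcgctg
Cyp27a1 (chr1:74713285-74713584, plus strand): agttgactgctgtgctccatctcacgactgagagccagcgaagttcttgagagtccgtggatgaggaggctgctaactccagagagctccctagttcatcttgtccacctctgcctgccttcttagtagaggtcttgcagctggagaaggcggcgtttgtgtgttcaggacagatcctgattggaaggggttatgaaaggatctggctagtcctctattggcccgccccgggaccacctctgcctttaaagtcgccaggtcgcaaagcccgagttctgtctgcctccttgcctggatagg
Cyp4v3 (chr8:45333114-45333413, minus strand): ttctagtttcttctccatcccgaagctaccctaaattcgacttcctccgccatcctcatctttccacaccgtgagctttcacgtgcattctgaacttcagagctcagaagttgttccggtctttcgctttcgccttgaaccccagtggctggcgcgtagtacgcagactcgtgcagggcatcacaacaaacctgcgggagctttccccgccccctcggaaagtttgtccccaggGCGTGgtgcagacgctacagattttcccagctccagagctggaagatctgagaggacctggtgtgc

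Cyp1a1 held 1 match, 54 bases before the start, and Cyp4v3 held 1, 16 bases before the start. Cyp2s1 and Cyp27a1 held none in this window. Of the 13 tested members with a window, 6 held GCGTG, against 32.4% of all 32851 windows. AGGTCA, a core recognized by nuclear receptors, was found in 1 of the 13 (a second window of Cyp11a1), against 16.3% of all windows. The deposited row of Cyp1a1 starts at position 57687928 of chromosome 9, upstream of the window shown.

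Cyp1a1, which oxidizes polycyclic aromatic hydrocarbons and is the classical target of AHR, had the highest RPKM of the family in all 6 libraries. Its RPKM was 79.7 in wt, 33.3 in scr 25-2 and 161 in scr 50-1, whereas it was 62.1, 162 and 42.5 in knockdown 25-3, 50-2 and 50-5. The groups overlapped, and the scr libraries differed from each other 4.82-fold and the knockdown libraries 3.81-fold. Its share of the summed RPKM of all 99 members ran from 22.8% in scr 25-2 to 57.1% in scr 50-1. The log2 fold change of knockdown over scr was -0.14 with a standard error (SE) of 0.798 and an edgeR FDR of 0.928, the p-value of edgeR's quasi-likelihood test after Benjamini-Hochberg adjustment across the whole table. It turned positive without scr 50-1 (1.40), knockdown 25-3 (0.07) or knockdown 50-5 (0.19). The summed RPKM of the 99 members was 146 and 281.5 in the scr libraries and 193, 326 and 159 in the knockdown libraries, and without Cyp1a1 it was 113 and 121 against 131, 164 and 117.

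**Figure D1:**
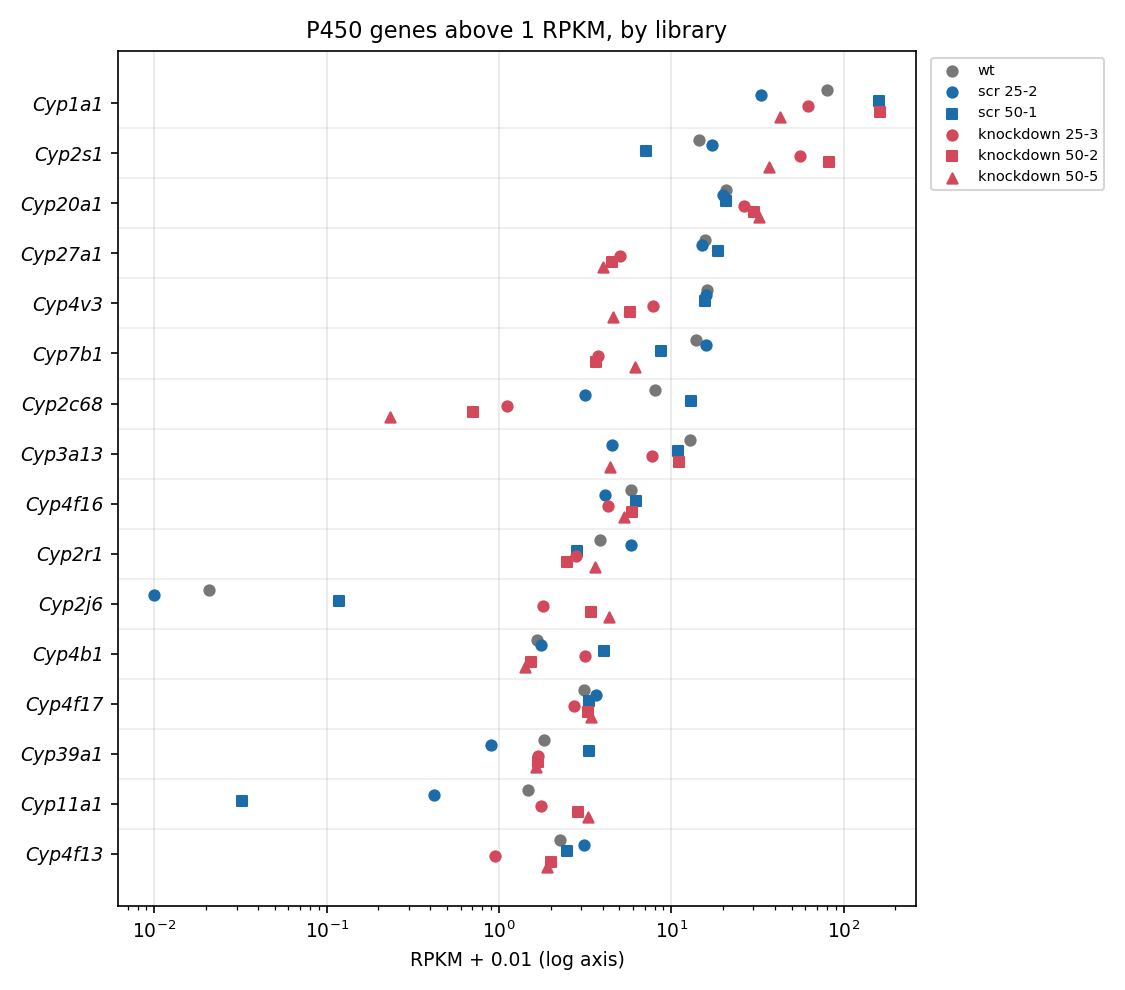
RPKM + 0.01 on a log axis for the 16 P450 genes whose RPKM exceeded 1 in any scr or knockdown library, with 1 point per library (wt grey, scr blue, knockdown red, symbols for the library numbers). The points of Cyp1a1 are mixed between groups, whereas those of Cyp2s1 and Cyp2j6 lie higher and those of Cyp27a1, Cyp4v3 and Cyp2c68 lower in all 3 knockdown libraries than in both scr libraries.

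Knockdown was compared with scr over the 11577 genes whose RPKM exceeded 1 in any of these 5 libraries. A gene was called when its FDR was below 0.05 and it differed at least 1.5-fold. Of the 99 members, 16 could be tested, and 14 of them were over 1 RPKM in both groups, while Cyp2j6 and Cyp11a1 were so in knockdown libraries only. Called members were 2 up-regulated (Cyp2s1 and Cyp2j6) and 3 down-regulated (Cyp27a1, Cyp4v3 and Cyp2c68), which is 31.2% of the 16 tested, beside 10.6% of all genes tested (5.40% up-regulated and 5.23% down-regulated). Since members enter this count by being expressed, the share is given as a description. The RPKM of the groups did not overlap in 9 of the 16 members (56.2%), beside 50.2% of all genes tested. The median log2 fold change was -0.26 over the 16 members and -0.01 over all genes. With only knockdown 25-3 and 50-2 against scr, the libraries of the study's list, Cyp27a1 was the sole member called, where 3.01% of all genes were called. This fit called 346 genes, fewer than the 1325 genes of the study's list that were compared. Which P450 genes stand in that list is not given here. Without knockdown 50-2 no member was called, where 1.14% of all genes were called, and without knockdown 25-3, where 2.24% were, Cyp27a1 and Cyp4v3 were called. The share of all genes called was 19.9% without scr 25-2 and 11.3% without scr 50-1. It was 20.1% by DESeq2, 10% and 10.4% by limma on log2(RPKM + 1) and log2(RPKM + 0.1), 14.1% with wt added to the controls, 6.97% with the 25 or 50 of the labels, which they do not explain, as a term and 10.8% at an RPKM over 5. Calls of members under these alternatives stand beside those shares.

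**Figure D2:**
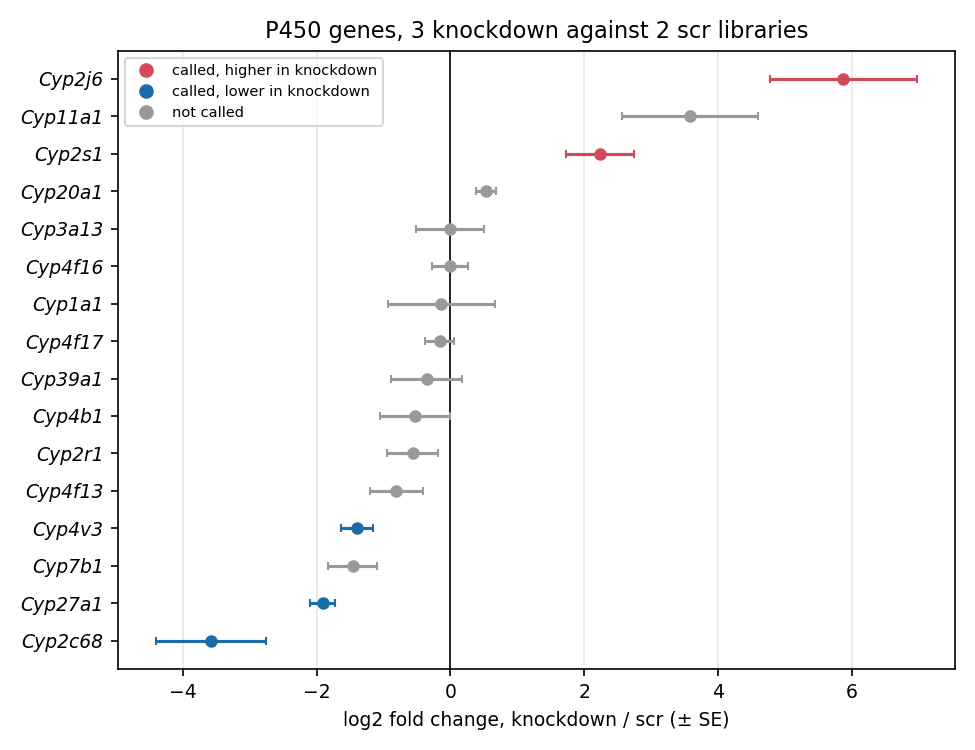
Log2 fold change of knockdown over scr for the 16 tested P450 genes, with bars of 1 standard error from the edgeR quasi-likelihood fit and colours for called genes. The estimates run from -3.58 for Cyp2c68 to 5.87 for Cyp2j6, and the bars of Cyp1a1, Cyp3a13, Cyp4f16, Cyp4f17 and Cyp39a1 include 0.

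Of the 3 tested bile acid and sterol enzymes, Cyp27a1 was called lower in knockdown cells, and Cyp7b1 and Cyp39a1 were not called. Cyp27a1 (chromosome 1 of mm10, 74713535 to 74737897) encodes the mitochondrial sterol hydroxylase that starts the alternative pathway of bile acid synthesis. Its RPKM was 15.7 in wt, 15.1 and 18.6 in the scr libraries and 5.05, 4.52 and 4.03 in knockdown 25-3, 50-2 and 50-5. All 3 knockdown libraries lay below the other 3. Mean Cyp27a1 fell, being 16.9 ± 2.46 (SD, n = 2) in scr and 4.54 ± 0.513 (SD, n = 3) in knockdown cells, with a log2 ratio of -1.91 (SE 0.188, edgeR FDR 0.00777). When libraries were left out singly, its log2 fold change stayed between -2.03 and -1.75, and the FDR exceeded the threshold only without knockdown 50-2, at 0.0548. Over the 47 tested genes starting within 5 Mb the median was 0.27 on the log2 scale, opposite in sign.

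Cyp7b1 (chromosome 3, 18071950 to 18243338), the microsomal oxysterol hydroxylase that acts next in that pathway, had an RPKM of 13.9 in wt, 15.9 and 8.77 in scr 25-2 and 50-1, compared with 3.74, 3.64 and 6.15 in the knockdown libraries. The groups did not overlap. The log2 ratio was -1.46 (SE 0.365) and was not called (edgeR FDR 0.0586). Cyp7b1 was called by DESeq2, with wt added to the controls and without scr 50-1. Cyp39a1, another oxysterol hydroxylase, had 1.81 in wt, 0.886 and 3.35 in scr 25-2 and 50-1, whereas it had 1.62 to 1.68 in the knockdown libraries, so the knockdown values lay between those of the scr libraries (log2 fold change -0.36, SE 0.535, edgeR FDR 0.690). Without scr 50-1 its log2 fold change was 0.89, and without scr 25-2 it was called lower, at -1.01. Cyp46a1, the cholesterol hydroxylase known from neurons, had at most 2 counts. Summed over the 6 members of this class, RPKM was 31.5 in wt, 31.9 and 30.7 in the scr libraries and 10.6, 9.89 and 11.9 in the knockdown libraries. The wt and scr sums were close to each other, with Cyp27a1 higher in scr 50-1 than in scr 25-2 and Cyp7b1 lower.

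**Figure D3:**
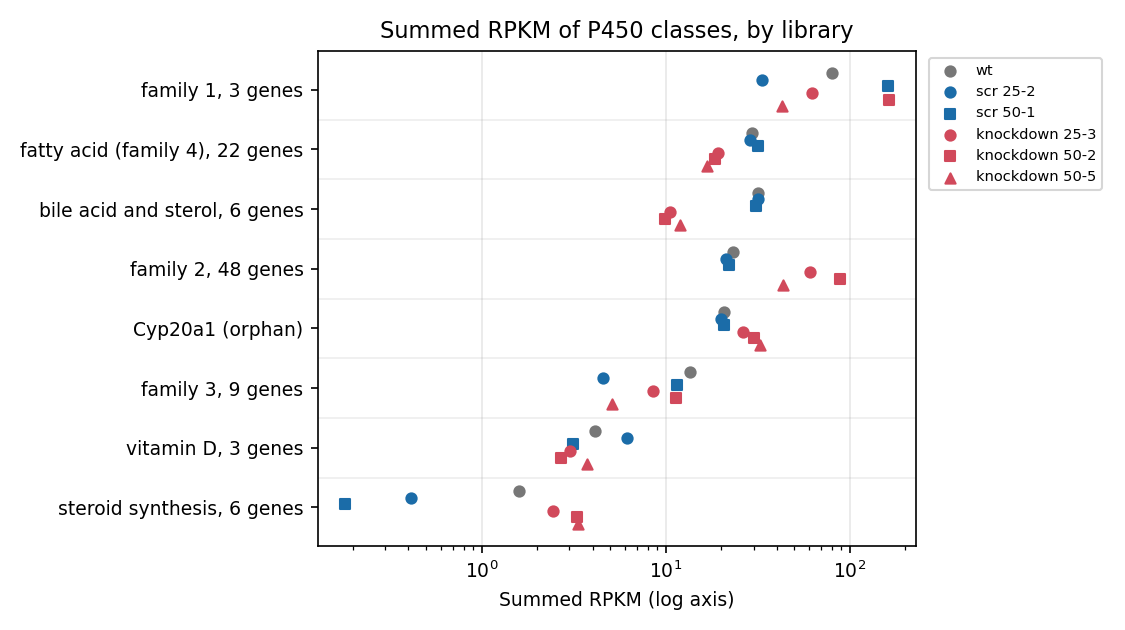
Summed RPKM of the P450 classes with a tested member, on a log axis with 1 point per library (wt grey, scr blue, knockdown red). The bile acid and sterol class lies at 9.89 to 11.9 in the knockdown libraries against 30.7 to 31.9 in the others, while family 1, which is nearly all Cyp1a1, overlaps between the groups.

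Among fatty acid enzymes of family 4, Cyp4v3 was called and the Cyp4f genes were not. Cyp4v3 (chromosome 8, 45305801 to 45333163), the mouse counterpart of the human fatty acid hydroxylase gene that is mutated in Bietti crystalline dystrophy, had an RPKM of 16.1 in wt, 15.9 and 15.6 in the scr libraries and 7.81, 5.79 and 4.60 in the knockdown libraries. The wt and scr values were within 1 unit of each other and all knockdown values were lower. Mean Cyp4v3 fell, being 15.8 ± 0.217 (SD, n = 2) in scr and 6.07 ± 1.62 (SD, n = 3) in knockdown cells, with a log2 ratio of -1.39 (SE 0.235, edgeR FDR 0.0240). The FDR was 0.113 without knockdown 50-2 and 0.0627 without knockdown 50-5. Over the 31 tested genes starting within 5 Mb the median was -0.42 on the log2 scale, and 6 of them were called lower and 1 higher, so part of the window moved in the same direction. The difference between Cyp4v3 and that median was -0.97.

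Cyp4f13, Cyp4f16 and Cyp4f17 lie together on chromosome 17 in a cluster of enzymes that inactivate leukotrienes and related eicosanoids. Cyp4f16 had an RPKM of 4.12 and 6.23 in the scr libraries and 4.29 to 5.93 in the knockdown libraries, and Cyp4f17 had 3.64 and 3.34 against 2.72 to 3.42. Cyp4f13 had 3.10 and 2.48 in the scr libraries and 0.944, 1.99 and 1.89 in the knockdown libraries, without overlap, but was not called (log2 fold change -0.81, SE 0.398, edgeR FDR 0.226). Cyp4b1, known for activating plant toxins in lung, had 1.74 and 4.07 against 1.40 to 3.14. The summed RPKM of the 22 rows of family 4 was 28.6 and 31.9 in the scr libraries and 16.7 to 19.1 in the knockdown libraries. Without Cyp4v3 the groups overlapped, at 12.6 and 16.3 against 11.3, 12.8 and 12.1.

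In family 2, Cyp2s1 and Cyp2j6 rose and Cyp2c68 fell. Cyp2s1 (chromosome 7, 25802469 to 25816525), a dioxin-inducible enzyme found mainly outside the liver, had an RPKM of 14.5 in wt, 17.3 in scr 25-2 and 7.16 in scr 50-1, compared with 55.9, 82.6 and 36.9 in knockdown 25-3, 50-2 and 50-5. All knockdown values exceeded those of the other 3 libraries, and within each group the values differed by over 2-fold (2.42-fold in scr and 2.24-fold in knockdown). The mean rose, being 12.2 ± 7.20 (SD, n = 2) in scr and 58.5 ± 23.0 (SD, n = 3) in knockdown cells, with a log2 ratio of 2.24 (SE 0.513, edgeR FDR 0.0495). That FDR lies just under the threshold, and Cyp2s1 was not called without scr 50-1 (log2 fold change 1.74, edgeR FDR 0.0770) or without any of the knockdown libraries (0.0811 to 0.143), nor when the 25 or 50 entered the model (0.0693). Without scr 25-2 its log2 fold change was 3.03. Cyp2s1 was 11.9% and 2.54% of the summed P450 RPKM in the scr libraries and 29.0%, 25.3% and 23.2% in the knockdown libraries, where it ranked behind Cyp1a1.

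Cyp2j6 (chromosome 4, 96516138 to 96553651), of a subfamily known for epoxidation of arachidonic acid, was nearly absent from control cells. It had 1 count in wt, 0 in scr 25-2 and 11 in scr 50-1, against 203, 396 and 519 in knockdown 25-3, 50-2 and 50-5, or an RPKM of 1.79, 3.41 and 4.36. The fitted log2 ratio was 5.87 (SE 1.10, edgeR FDR 0.0306), but its size rested on the 11 counts of scr 50-1. It was 4.88 without scr 25-2 and 11.5 without scr 50-1, where the scr count was 0 and the size is not measured. By limma the log2 fold change was 1.94 on log2(RPKM + 1) and 4.42 on log2(RPKM + 0.1). Without any of the knockdown libraries the FDR was 0.0842 to 0.119. Over the 20 tested genes starting within 5 Mb the median was 1.27 on the log2 scale, and 9 of them were called higher and 0 lower. The part of this regional shift in the change of Cyp2j6 was not tested, and Cyp2j6 exceeded the median by 4.60 on the log2 scale. The other 6 genes of the subfamily, which include Cyp2j5 and Cyp2j8, had at most 2 counts in any library.

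Cyp2c68 (chromosome 19, 39688836 to 39741101), in the Cyp2c cluster, had an RPKM of 8.0 in wt, 3.15 in scr 25-2 and 12.9 in scr 50-1, compared with 1.11, 0.700 and 0.222 in knockdown 25-3, 50-2 and 50-5. The groups did not overlap, and the scr libraries differed 4.11-fold. The log2 ratio was -3.58 (SE 0.818, edgeR FDR 0.0488). It was not called without scr 50-1 (-2.23, edgeR FDR 0.107) or without any of the knockdown libraries (edgeR FDR 0.109 to 0.172), by limma on log2(RPKM + 1) or log2(RPKM + 0.1), or with the 25 or 50 of the labels as a term. Its neighbour Cyp2c67, under the RPKM limit, had 9 counts in wt, 5 and 41 in the scr libraries and 3, 2 and 0 in the knockdown libraries, with the same library highest. Reads of such similar genes may be split between rows. Summed over the 15 rows of the Cyp2c subfamily, counts were 186 and 708 in the scr libraries and 133, 84 and 86 in the knockdown libraries, and the sum was not called (log2 fold change -2.32, SE 0.589, edgeR FDR 0.0608). In the same fit with 37 subfamily sums in place of the members, 14 could be tested (10.6% of all rows called), and Cyp2j, Cyp2s, Cyp27a and Cyp4v were called. Cyp2s, Cyp27a and Cyp4v hold 1 member each, and Cyp2j was nearly all Cyp2j6 (519 of 525 counts in knockdown 50-5). These calls therefore repeat those of the members and are no check of split reads.

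The remaining tested members were not called. Cyp20a1, an orphan enzyme without an assigned substrate, had an RPKM of 20.8 in wt, 19.9 and 20.7 in the scr libraries and 26.3, 30.1 and 32.5 in the knockdown libraries. Its groups did not overlap, but the log2 ratio of 0.53 (SE 0.144, edgeR FDR 0.0697) was under the fold change limit of 1.5. Cyp11a1, the mitochondrial side-chain cleavage enzyme that begins steroid hormone synthesis, had 120 counts in wt, 38 and 2 in scr 25-2 and 50-1, compared with 172, 292 and 341 in the knockdown libraries (log2 fold change 3.57, SE 1.02, edgeR FDR 0.0768). It was called by DESeq2, by limma on log2(RPKM + 1), where its log2 fold change was 1.57, and on log2(RPKM + 0.1), and without scr 25-2 (6.8) or scr 50-1 (2.66). With wt added to the controls its log2 fold change was 2.07 and the edgeR FDR 0.202. Its RPKM in wt, 1.47, lay just below the lowest knockdown library, at 1.74. Cyp3a13, of the drug-metabolizing subfamily 3A, had an RPKM of 12.9 in wt, 4.50 and 11 in the scr libraries and 7.76, 11.1 and 4.38 in the knockdown libraries, with full overlap (log2 fold change -0.01, SE 0.505, edgeR FDR 0.995). Cyp2r1, the microsomal vitamin D hydroxylase, had 3.86 in wt, 5.82 and 2.82 in the scr libraries and 2.49 to 3.58 in the knockdown libraries (log2 fold change -0.56, SE 0.382, edgeR FDR 0.365).

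The 10 members that reached 20 counts in a library but not an RPKM over 1 in any scr or knockdown library were tested only in a fit without the RPKM filter, in which 7.32% of 18673 genes were called. Cyp1b1, another target of AHR, had 2 counts in wt, 1 and 0 in the scr libraries and 26, 73 and 33 in the knockdown libraries, and was called (edgeR FDR 0.0203). Over the pooled libraries the 132 knockdown counts of Cyp1b1 against 1 scr count gave a ratio of 78.8 after scaling to library size. The exact 95% Poisson interval, 13.9 to 3140, covers counting error only. Such ratios were formed only for members with at most 3 counts in each scr library and over 3 in every knockdown library. A ratio above 1 was therefore set by that choice. Cyp2c23, an arachidonic acid epoxygenase of kidney, had 11 counts in wt, 2 and 1 in the scr libraries and 20, 16 and 15 in the knockdown libraries, a ratio of 10.2 with an interval of 3.28 to 50.9 (edgeR FDR 0.0356). Here wt lay with the knockdown libraries rather than with scr. Cyp2d22 had 0 and 7 counts in the scr libraries and 52, 33 and 52 in the knockdown libraries (edgeR FDR 0.0844), and Cyp2c55 had 8 and 3 against 23, 14 and 25 (edgeR FDR 0.153). Cyp27b1, which activates vitamin D, had 24 and 19 against 12, 12 and 8 (edgeR FDR 0.188). Cyp21a1, a steroid hydroxylase, had 0 and 5 counts in scr and 43, 25 and 2 in knockdown, and Cyp2c38 had 0 and 2 against 21, 2 and 12. Cyp1a2, which metabolizes caffeine and lies beside Cyp1a1, had 1 and 22 counts against 4, 5 and 0, and Cyp3a16 had 2 and 23 against 42, 13 and 41.

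**Figure D4:**
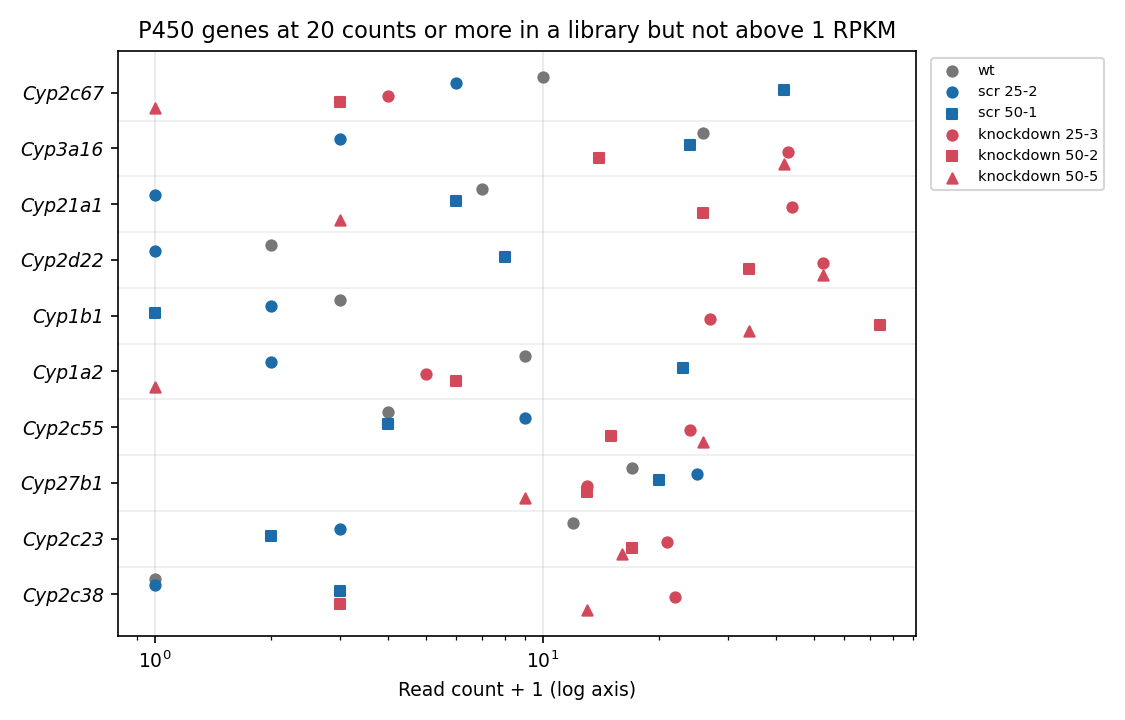
Read count + 1 on a log axis for the 10 P450 genes with at least 20 counts in a library and an RPKM of at most 1 in every scr and knockdown library, with 1 point per library (wt grey, scr blue, knockdown red). Cyp1b1, at 26 to 73 counts in the knockdown libraries against 0 to 2 in the other libraries, shows the widest gap between the groups.

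Library wt, which took no part in the test, lay within the range of the scr libraries in 9 of the 16 tested members, above it in 4 (Cyp20a1, Cyp4v3, Cyp3a13 and Cyp11a1) and below it in 3 (Cyp4b1, Cyp4f17 and Cyp4f13). For all 5 called members wt lay on the scr side of the knockdown libraries, and with wt added to the controls the same 5 and Cyp7b1 were called. The position of wt was not counted over all genes, so these counts are not read as a trait of the P450 members.

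The genes that serve P450 enzymes were taken from lists of 43 genes, of which 35 could be tested, and 1 was called up-regulated and 5 down-regulated, which is 17.1% beside 10.6% of all genes tested. Their median log2 fold change was -0.16, beside -0.01 over all genes. Por, the reductase that supplies microsomal P450 enzymes, had an RPKM of 53.4 in wt, 45.6 and 76.5 in the scr libraries and 49.7, 58.0 and 57.7 in the knockdown libraries, with overlapping groups (log2 fold change -0.16, SE 0.234, edgeR FDR 0.687). Cyb5a, microsomal cytochrome b5, had 259 in wt, 189 and 337 in the scr libraries and 96.8, 106 and 102 in the knockdown libraries, and fell (log2 fold change -1.38, SE 0.246, edgeR FDR 0.0276). Cyb5b, its counterpart on the outer mitochondrial membrane, had 132 and 191 in the scr libraries and fell to 89.3, 84.4 and 84.4 (log2 fold change -0.92, SE 0.179, edgeR FDR 0.0339). Pgrmc1, a heme-binding membrane protein that associates with P450 enzymes, rose from 40.0 and 52.6 to 92.0, 108 and 73.9 (log2 fold change 0.97, SE 0.213, edgeR FDR 0.0453). The mitochondrial donors Fdx1 (log2 fold change -0.20) and Fdxr (0.11) were not called.

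Of 8 tested genes of heme synthesis, Alad alone was called (12.5%, near the 10.6% of all genes). Alad, which forms porphobilinogen, had an RPKM of 62.6 in wt, 46.0 and 83.2 in the scr libraries and 21.4, 21.6 and 18.8 in the knockdown libraries, a log2 ratio of -1.66 (SE 0.253, edgeR FDR 0.0188). Alas1, the rate-limiting enzyme of the pathway in liver, had 6.97 and 8.94 in the scr libraries and 11, 14.3 and 10.5 in the knockdown libraries, without overlap and not called (log2 fold change 0.57, SE 0.200, edgeR FDR 0.118). Of 4 genes of heme breakdown Blvrb, a biliverdin reductase, was called (25%), with 58.0 and 99.8 in the scr libraries and 27.5, 35.9 and 27.2 in the knockdown libraries (log2 fold change -1.40, SE 0.260, edgeR FDR 0.0306). All 6 partner calls were lost when any of the 3 knockdown libraries was left out, where 1.14% to 3.01% of all genes were called. Pgrmc1 was also not called without scr 25-2 or with the 25 or 50 of the labels as a term, and Cyb5b not with that term. Dbp was not called without scr 50-1, with that term, without the RPKM filter, in either limma fit or with wt added to the controls, and it was not tested at an RPKM over 5.

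**Figure D5:**
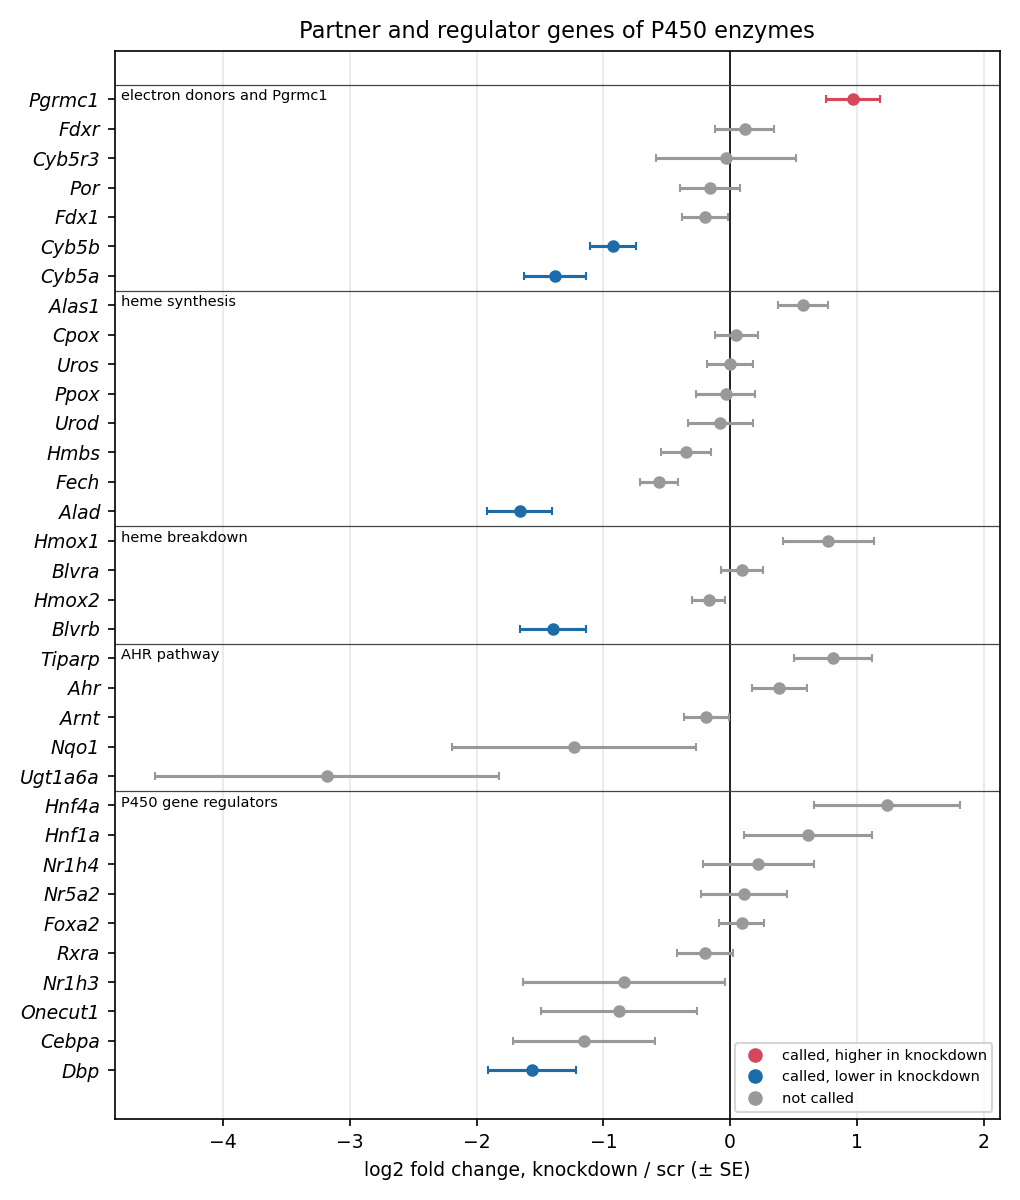
Log2 fold change of knockdown over scr for 34 of the 35 tested partner and regulator genes, grouped by list, with bars of 1 standard error and colours for called genes. Cyb5a, Cyb5b, Alad, Blvrb and Dbp are the genes called lower and Pgrmc1 is the gene called higher.

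Of the AHR pathway, 6 of 8 genes were tested and 0 were called by the quasi-likelihood test and by DESeq2 (10.6% and 20.1% of all genes), and 2 of them had an unadjusted p under 0.05. Ahr itself had an RPKM of 28.3 and 43.6 in the scr libraries and 49.2, 41.8 and 51.1 in the knockdown libraries (log2 fold change 0.39, SE 0.218, edgeR FDR 0.281). Tiparp, which AHR induces, had 11.7 and 9.33 against 15.8, 26.3 and 13.9 (log2 fold change 0.81, SE 0.307, edgeR FDR 0.141). Nqo1 was 0.525 in scr 25-2 and 8.78 in scr 50-1, and 1.90 to 2.04 in the knockdown libraries, and Ugt1a6a was 0.0515 and 2.72 against 0.0750 to 0.256. Ahrr, the repressor of AHR, was not tested, with 12 counts in scr 25-2, 1 in scr 50-1 and 3, 14 and 10 in the knockdown libraries. Nqo1 was called lower without scr 25-2 and higher without scr 50-1, and Ugt1a6a was called lower without scr 25-2. Of the 15 transcriptional regulators 10 were tested and Dbp, a circadian factor, was called (10%, near the share of all genes), with 2.15 and 3.68 in the scr libraries and 1.17, 0.867 and 0.936 in the knockdown libraries (log2 fold change -1.56, SE 0.348, edgeR FDR 0.0462). Nr1i2, the pregnane X receptor, and Nr0b2, a repressor of bile acid synthesis, had 0 counts in all 6 libraries. Nr1i3, the constitutive androstane receptor, had 23 to 38 counts. Vdr, the vitamin D receptor, had 12 and 20 counts in the scr libraries and 79, 123 and 94 in the knockdown libraries, and was called higher in the fit without the RPKM filter. Hnf4a had 33.9 and 11 in the scr libraries and 65.5, 65.4 and 29.6 in the knockdown libraries, with overlap (log2 fold change 1.23, SE 0.576, edgeR FDR 0.206), and was called higher without scr 25-2. Other uncalled regulators leaned lower. Cebpa had 9.82 and 5.07 in the scr libraries and 4.63, 4.19 and 1.36 in the knockdown libraries, without overlap (log2 fold change -1.15, SE 0.560, edgeR FDR 0.220). Onecut1 had 10.2 and 3.91 against 5.14, 4.96 and 1.59, with overlap (log2 fold change -0.88, SE 0.617, edgeR FDR 0.378). In these bulk libraries fewer cells of a kind and less RNA per cell cannot be told apart.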

How the data were processed

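RNA-seq reads were aligned by the authors to mm10 (GRCm38) with TopHat2 and counted per gene with HTSeq (0.6.1p1 in the submitters' processing notes) against RefSeq, and these counts were deposited without normalization. The strand setting is not given in the sources used here, so antisense pairs and near-identical paralogs have uncertain counts. The deposited RPKM values were computed by the authors with TMM-scaled library sizes. Library columns were matched to samples by name, and 0 were left unmatched.

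Knockdown was compared with scr on the counts with edgeR 4.0.16 (R 4.3.3) using TMM factors and quasi-likelihood F-tests. A gene needed an RPKM above 1 in any compared library, and p-values were adjusted by Benjamini-Hochberg over all such genes. The limits for calls (FDR below 0.05, 1.5-fold) follow the study's methods. All 3 labelled knockdown libraries entered. The SE of a log2 fold change was taken as its size over the root of F. The common biological coefficient of variation was 0.272. Classes follow known functions. Every called member was named, then the tested members, then untested members with at least 20 counts in a library, and of the partner lists the called genes and Por, while Alas1, the AHR genes and other partner genes were picked after their values were seen. Among the tested partner genes 1, included in the counts, is not reported here. Members and lists were chosen with earlier results of these data known. The 14 alternatives used DESeq2 1.42.0, limma 3.58.1 and edgeR. Promoter windows were matched by symbol for 75 of 99 members. Plots used matplotlib 3.10.9 (Python 3.11.15).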

Additional observations from a re-analysis of the deposited data

How the results depend on the processing

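Of the 14 alternatives, RLE size factors and leaving out Rn45s called the same 5 P450 members. Members called higher numbered 2 and became 4 without the RPKM filter, 0 with an RPKM over 5 (where Cyp2j6 was not tested and Cyp2s1 had an edgeR FDR of 0.0506) and 1 with the 25 or 50 of the labels as a term. With 1 library left out in turn, members called higher ranged from 0 to 3 and members called lower from 0 to 4, against 2 and 3, while the share of all genes called ranged from 1.14% to 19.9%. Partner genes called higher became 2 without the RPKM filter and 0 with the 25 or 50 as a term, where 3 were called lower. With 1 library left out they ranged from 0 to 2 called higher and from 0 to 9 called lower. Leaving out a library also removes samples from the fit. The log2 fold change of uncalled genes changed sign in limma on log2(RPKM + 1) and log2(RPKM + 0.1) for Cyp1a1 (0.0383 and 0.0419), Cyp3a13 (0.0324 and 0.0405) and Cyp4f16 (0.0132 and 0.0180), and with the 25 or 50 as a term for Cyp3a13 (0.0105). With 1 library left out the log2 fold change ranged from -0.89 to 1.40 for Cyp1a1, from -0.99 to 0.0695 for Cyp2r1, from -1.01 to 0.89 for Cyp39a1, from -0.50 to 0.77 for Cyp3a13, from -1.01 to 0.20 for Cyp4b1, from -0.26 to 0.32 for Cyp4f16 and from -0.47 to 0.26 for Por. The cause of these changes was not tested. All 5 called members kept their direction under every alternative in which they were tested, and Cyp27a1 was called in 13 of 14. The groups of these 5 members did not overlap, so leaving out a library could hardly reverse their direction. The labels give the groups no shared replicate number. The 25 or 50 that they do share entered only as the term above, under which Cyp2s1 and Cyp2c68 were not called. A fit without 1 scr library leaves that group with 1 sample, which is assumed to vary like the knockdown libraries. Depth limits the 48 members with 1 to 19 counts in their highest library and the 25 at 0, for which a change could be missed.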
